A study of Solanum lycopersicum with 8 samples.

Results

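The shoot apical meristem of wild-type (WT) tomato (Solanum lycopersicum) was compared between plants with 6 leaves and plants with 4 leaves by RNA sequencing, with 2 libraries per stage, labelled A and B. All genes with a normalised read count of at least 10 in at least 2 of these 4 libraries were described, which were 18793 of the 34722 genes listed. Meristems had been dissected from acetone-fixed greenhouse seedlings and total RNA was sequenced. The same stages of the late termination (ltm) mutant, also with 2 libraries each, entered the fits and serve as a side comparison, and the labels give no other allele or treatment. Whether the repeats named in the labels came from separate plants is not stated. A p-value here therefore reflects the spread of these libraries alone, which may be technical. The comparison addresses, per the series' design, how the meristem at the change to flowering differs from the vegetative meristem, and attention is given here to genes outside the known floral regulators.

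The meristem is the dome of dividing cells that makes the leaves of the shoot. In tomato, which flowers sympodially, the main shoot forms a number of leaves and then ends in an inflorescence, and growth goes on from the bud below. The change is known to involve florigen from the leaves and MADS-box genes in the meristem, and the meristem itself is kept by KNOX genes and by the WUSCHEL and CLAVATA3 loop. Auxin, cytokinin and gibberellin are known to act in the making of organs at its flank.

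The 4 WT libraries held between 17895357 and 21987881 reads assigned to genes, and between 22261 and 22622 genes had at least 1 read. The defining genes of meristem tissue were present: all 9 tested genes of the meristem maintenance list passed the minimum, and the KNOX gene TKN2 stood at 4976, 4388, 5027 and 6828 (normalised read count in WT 4 leaves A and B, then WT 6 leaves A and B, the order used throughout). Genes of green leaf tissue were present as well. Of the 34 light-harvesting identifiers 32 were tested, and their summed normalised count was 45083 and 54899 at 4 leaves and 40293 and 37412 at 6 leaves. On the first principal component of all 8 libraries, with 35.3% of the variance, the B libraries at 4 leaves of both genotypes lay apart at 43.5 (WT) and 39.5 (ltm), and the other 6 lay between -37.4 and 7.46. On the second, with 21.4%, WT 6 leaves B lay highest at 46.8.

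At 6 leaves the MADS-box gene MBP20, Solyc05g056620.1 and an adjacent pair of unnamed genes on chromosome 8 were higher than at 4 leaves, and the unnamed gene Solyc03g078330.1 was lower. These genes were called by DESeq2 and by neither limma nor edgeR. Solyc05g056620.1 and Solyc03g078330.1 passed the minimum only through the stage where they are high. MBP20 had 6.40 and 11.5 at 4 leaves, so it too needed the 6 leaves libraries to pass. By limma on log2(normalised count + 1), with Benjamini-Hochberg adjustment over all 18793 genes, 0 genes passed the threshold of 0.05, and the smallest adjusted p was 0.466. At an unadjusted p under 0.05 there were 1150 genes (6.12% of those tested), 597 higher at 6 leaves (3.18%) and 553 lower (2.94%). edgeR on the recovered whole reads also called 0 genes, with 1139 at an unadjusted p under 0.05. DESeq2 on the same reads called 11 genes (0.0585%), 8 higher at 6 leaves (0.0426%) and 3 lower (0.0160%). The counts of genes whose 2 libraries at one stage lay wholly above both libraries at the other were 3949 higher (21.0%) and 3953 lower (21.0%), 7902 in all (42.0%).

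Libraries of one stage differed from each other about as much as the stages did. The median absolute difference of log2(normalised count + 1) was 0.200 between the 4 leaves libraries and 0.167 between the 6 leaves libraries. Between the stages it was 0.142 within letter A and 0.240 within letter B. The median change over all genes was -0.002 on the log2 scale. A change of at least 2-fold without overlap of the groups was seen for 141 genes higher at 6 leaves (0.750%) and 143 lower (0.761%). These 284 genes were mostly low: their median level over the WT libraries was 23.5 against 425 for all genes tested, and 223 of them were under 100. Within both letters, 46 genes were at least 2-fold higher and 49 at least 2-fold lower.

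**Figure D1:**
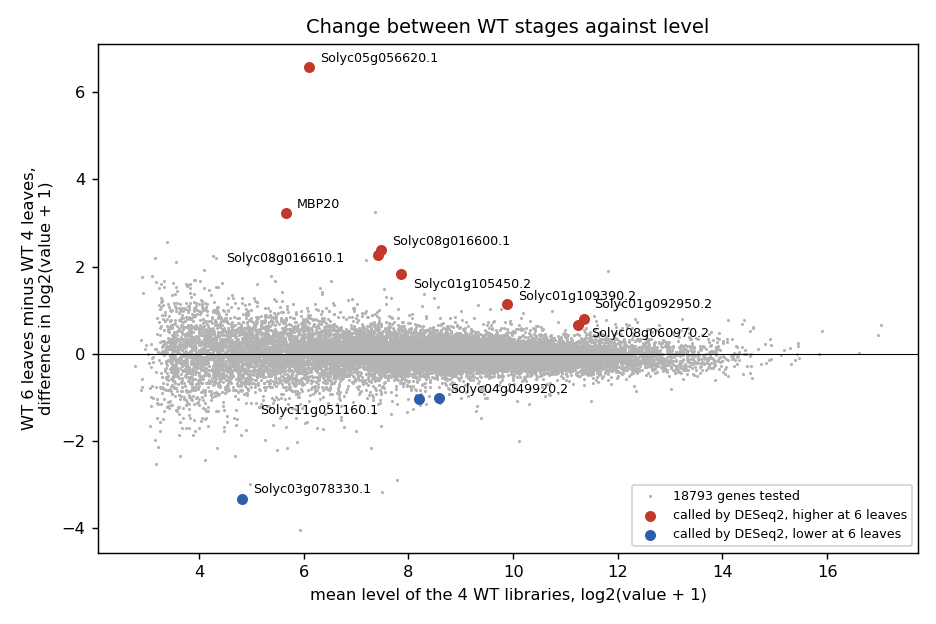
The difference between WT 6 leaves and WT 4 leaves in log2(normalised count + 1) is plotted for each of the 18793 genes (grey points) against its mean level in the 4 WT libraries, on a log2 axis. The 8 genes that DESeq2 called higher (red) and the 3 it called lower (blue) are named and lie outside or at the edge of the cloud, which widens towards low levels.

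Of the 11 genes called by DESeq2, 8 were on none of the gene lists and had no name in the reference table, so they are given by identifier with no role. Here and below, log2 differences with an SE are limma estimates unless said to be from DESeq2. None of these genes passed in limma. Each DESeq2 adjusted p belongs to a separate fit and not to the limma SE beside it. The pair Solyc08g016600.1 and Solyc08g016610.1, listed next to each other on chromosome 8, was called higher at 6 leaves. Solyc08g016600.1 had normalised counts of 45.7, 64.7, 219 and 377, and Solyc08g016610.1 had 49.3, 62.6, 199 and 366. Both genes had both 6 leaves libraries above both 4 leaves libraries, with WT 6 leaves B highest. The differences in log2(value + 1) were 2.38 ± 0.45 (SE) and 2.26 ± 0.50, with DESeq2 adjusted p = 0.000619 and 0.00335. The values of the pair are close in the 4 WT libraries, and in ltm they were 111, 50.4, 131 and 239 for the first and 164.5, 60.4, 157 and 279 for the second. No sequence was at hand to see whether the genes share reads, so each value alone is uncertain.

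The next genes without a name that were called higher were both on chromosome 1. Solyc01g105450.2 stood at 148.0, 65.8, 349.5 and 358. Its 4 leaves libraries differ from each other, and both lie below the 6 leaves libraries, with a log2 difference of 1.83 ± 0.40 (DESeq2 adjusted p = 0.0151). Solyc01g109390.2 stood at 517, 633, 974 and 1650.2. The groups do not overlap and the spread is widest at 6 leaves, with a log2 difference of 1.15 ± 0.30 (DESeq2 adjusted p = 0.0493, the closest to the threshold of the 11). With the replicate letter as a block in DESeq2 this call is lost (adjusted p = 0.610).

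Solyc08g060970.2 on chromosome 8 was a gene of high level with a small and even change. It stood at 1729, 2001, 2718.5 and 3215, so the group means were 1865 ± 193 and 2967 ± 351 (SD, n = 2). The change was 0.65 within letter A and 0.68 within letter B on the log2 scale, and the DESeq2 adjusted p was 0.0296.

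The 3 genes called lower have no name in the reference table. Solyc03g078330.1 on chromosome 3 had 55.7, 44.9, 4.98 and 3.40, with group means of 50.3 ± 7.67 and 4.19 ± 1.12 (SD, n = 2). Its log2 difference of -3.32 ± 0.48 in limma is the largest fall of the 3. From DESeq2 the difference was -3.58 ± 0.77 (DESeq2 adjusted p = 0.0113). It passed the minimum through the 4 leaves libraries alone, so the size of the fall is to be read with caution. Solyc04g049920.2 on chromosome 4 had 507, 512, 212 and 296 (log2 difference -1.02 ± 0.19, DESeq2 adjusted p = 0.0291). Solyc11g051160.1 on chromosome 11 had 422, 372, 199 and 186 (-1.04 ± 0.19, DESeq2 adjusted p = 0.0296). For each of these genes the libraries of a stage lie close together and far from the other stage.

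The other 3 called genes were on the floral transition list. MBP20 (Solyc02g089210.2, chromosome 2), a MADS-box gene of the FRUITFULL clade, had 6.40, 11.5, 71.7 and 109, and its log2 difference was 3.22 ± 0.56 (DESeq2 adjusted p = 0.00356). It needed the 6 leaves libraries to pass the minimum, so the size of the rise is to be read with caution. Solyc05g056620.1 (chromosome 5), whose name could not be checked, was near 0 at 4 leaves. It had 0, 1.04, 124.5 and 146, or 1 read at 4 leaves and 254 at 6 leaves, and it passed the minimum through the 6 leaves libraries alone. Its DESeq2 adjusted p was 0.000925, and it was also the gene with the smallest limma p over all genes. Solyc01g092950.2 (chromosome 1), with no checked name, had 1724.5, 2064, 2839 and 3775 (log2 difference 0.79 ± 0.15, DESeq2 adjusted p = 0.0151).

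**Figure D2:**
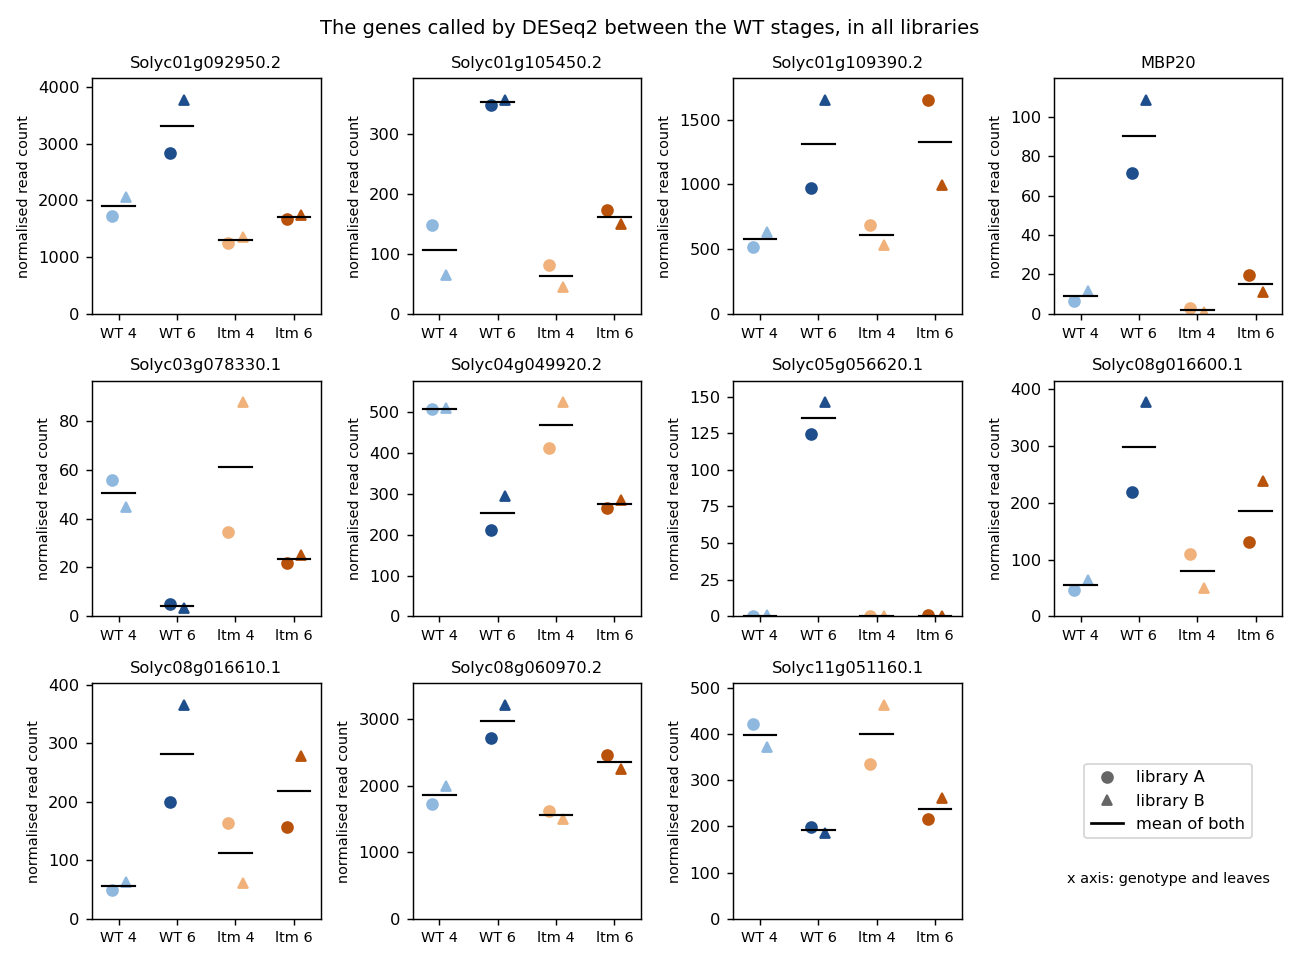
Normalised read counts (vertical axes, each starting at 0) of the 11 genes called by DESeq2 between the WT stages are shown in all 8 libraries, by genotype and number of leaves, with circles for library A, triangles for library B and a bar for the mean. In each panel the WT 6 libraries lie wholly above or wholly below the WT 4 libraries, which the calling itself favours. Solyc05g056620.1 is near 0 in each library but the WT 6 ones.

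These calls depended on the method and on the libraries. In limma, edgeR and their alternatives the adjusted p of Solyc05g056620.1 lay between 0.0205 and 1, and that of the other 10 between 0.263 and 1. Without WT 6 leaves B DESeq2 called 0 genes. Without WT 4 leaves A it called 23 genes, none of them among the 11, of which 9 had no adjusted p there. It called 53 genes without ltm 4 leaves A, 52 without ltm 4 leaves B and 5 without either ltm 6 leaves library.

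**Figure D3:**
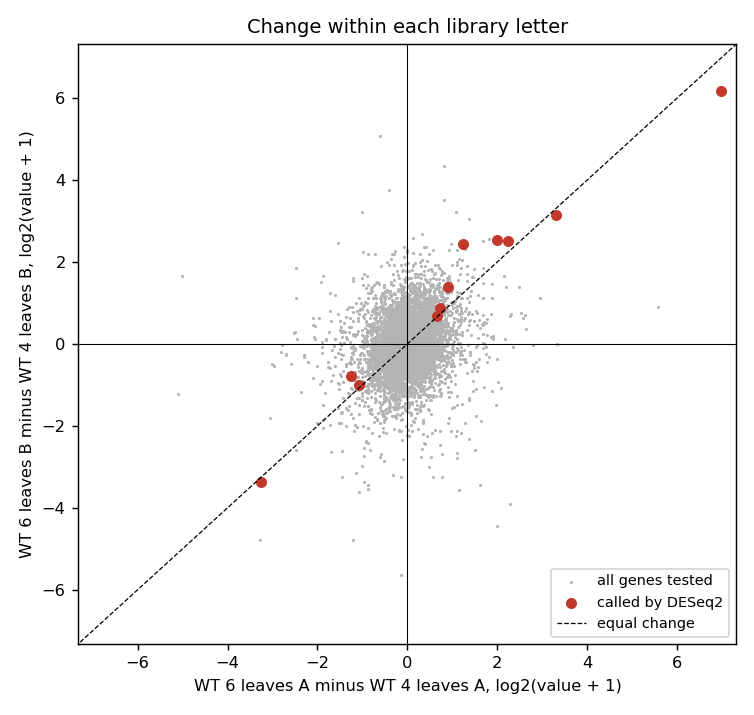
The change from 4 to 6 leaves within letter A (horizontal axis) is plotted against that within letter B (vertical axis), both as differences in log2(normalised count + 1), for all genes tested (grey) and the 11 genes called by DESeq2 (red), with a dashed line of equal change. Each called gene has the same sign within both letters, which the calling itself favours. The called genes run from Solyc03g078330.1 at -3.25 and -3.38 to Solyc05g056620.1 at 6.97 and 6.17, and Solyc01g105450.2 lies well off the line at 1.23 and 2.43.

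Of the 284 genes with a change of at least 2-fold without overlap, 61 had a mean of at least 100 over the 4 WT libraries. Of these, 24 were higher at 6 leaves and 37 lower. The number of all genes at that level was not counted, so no share is given. Some of these changes differed between the letters, as for Solyc12g098590.1 with -0.03 within letter A and -2.01 within letter B. Most of the 61 were not called by DESeq2, and 4 of those are given as examples, chosen after their values were seen. Solyc07g006380.2 had the highest level of these 4, at 1529, 1447, 6780.3 and 4568. It stood apart between the stages with a log2 difference of 1.90 ± 0.48 (limma unadjusted p = 0.00417). Solyc08g066840.2 had 256, 245, 77.7 and 38.5, with a log2 difference of -2.17 ± 0.94. Solyc02g083250.2 had 948, 2679, 474 and 336, where WT 4 leaves B alone is far above the rest. Solyc09g007940.2 had 654, 30.3, 17.9 and 12.5, where the difference of -3.17 ± 1.17 rests on WT 4 leaves A.

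At the low end, Solyc02g089460.1 was the only gene of the table with at most 3 reads in total at 6 leaves and a normalised count of at least 10 in both 4 leaves libraries. It had 11 and 18 reads at 4 leaves and 1 and 2 at 6 leaves. It passed the minimum through the 4 leaves libraries alone, so no fold or interval is given. The reverse pattern, at most 3 reads at 4 leaves, was seen for Solyc05g056620.1 alone. Solyc01g056290.2 and Solyc11g012050.1 had the smallest limma p among genes on no list that were higher at 6 leaves. The first had 23.8, 26.1, 60.7 and 77.0, and the second 384, 435, 645 and 717 (log2 differences 1.42 ± 0.26 and 0.73 ± 0.14).

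Adjacent genes with like differences were looked for along the order of the identifiers of the tested genes. Genes that were not tested can lie between the members of a pair. Along the 18793 tested genes there were 8 pairs with both members at least 2-fold changed without overlap in the same direction. Of these pairs 4 were higher and 4 lower. Whether 8 is more than the positions of the 284 such genes would give was not tested. Apart from the pair called above, one pair with higher values at 6 leaves was Solyc03g006360.2, with 131, 15.7, 279.8 and 153, and Solyc03g006370.2, with 11, 7.31, 21.9 and 22.7. Among the lower ones, Solyc05g007300.2 had 55.7, 63.7, 12.9 and 15.9. The next tested gene, Solyc05g007420.1, whose identifier does not follow directly, had 14.6, 11.5, 6.97 and 1.13.

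Turning to genes of known function, 342 identifiers on 26 lists were compiled and 281 were tested. Of these, 27 had an unadjusted limma p under 0.05 (9.61%, against 6.12% of all genes), 24 higher and 3 lower. In limma 0 list members passed over all genes. The floral transition list, which earlier results of these data had already shown to be higher and which is therefore no independent evidence, had a median log2 difference of 1.29 over its 11 tested members, against -0.002 for all genes. Without WT 6 leaves B it was 0.59 and without WT 4 leaves B 0.92. Of the 11, 8 had an unadjusted p under 0.05, all higher, where 3.18% of all genes were higher at that level. These 8 are part of the 27 above, so the 9.61% rests in part on this list and is no independent evidence either.

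Besides the called genes, the FRUITFULL-clade genes FUL1 and FUL2 were higher at 6 leaves. FUL1 had 35.6, 51.2, 134 and 142, and FUL2 had 104, 122, 198 and 387. The libraries of FUL1 lay close together at 6 leaves, with a log2 difference of 1.67 ± 0.34, and those of FUL2 lay further apart there (1.29 ± 0.34, and 0.81 without WT 6 leaves B). COMPOUND INFLORESCENCE (S), a homeobox gene that limits branching of the inflorescence, had 44.8, 34.5, 59.7 and 181, and its difference of 1.38 is 0.59 without WT 6 leaves B. FYFL, a MADS-box gene named after FOREVER YOUNG FLOWER of Arabidopsis, had 65.8, 26.1, 97.6 and 130.2 (log2 difference 1.42 ± 0.42, and 0.77 without WT 4 leaves B). Each of these has both 6 leaves libraries above both 4 leaves libraries, as did 21.0% of all genes. They were named by a rule that required groups without overlap, so this is no separate result.

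Other floral regulators differed little in value or were barely detected. FALSIFLORA (FA), the tomato LEAFY, had 4874, 4887, 5091 and 5407, a log2 difference of 0.10 ± 0.17. JOINTLESS (J), a MADS-box gene that keeps the inflorescence meristem, had 3799, 2873, 3497 and 4227, and its groups overlap. The remaining 11 list members were below the minimum. SFT, the florigen gene, had 0, 0, 0 and 9 reads, and SP, its antagonist of the same family, had 1, 0, 8 and 0. SP5G, SP9D and SP6A, further members of that family, had 0 reads in all 4 libraries.

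Of the SEPALLATA-clade MADS-box genes below the minimum, J2, EJ2 and LIN had more reads at 6 leaves, while RIN had 4 and 5 reads at 4 and 6 leaves, TM29 had 2 and 3 and TM5 had 1 and 1. J2 had 1, 5, 20 and 7 reads, a ratio of 4.89 (95% counting interval 1.98 to 14.5, exact binomial). EJ2 had 1, 0, 6 and 3, a ratio of 9.79 (1.36 to 429), and LIN had 1, 3, 10 and 6, a ratio of 4.35 (1.40 to 17.9). These intervals cover counting error only, and no test over libraries was made because the genes lie below the minimum.

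Of the floral organ list 4 of 13 genes reached the minimum. MBP3, a MADS-box gene close to the ovule class and known in tomato for the jelly of the fruit locule, was lower at 6 leaves, with 146, 124, 66.7 and 65.7 (log2 difference -1.01 ± 0.21, limma unadjusted p = 0.0013). TM6, of the petal and stamen class, had 686, 507, 874 and 894, a difference of 0.58 that is 0.36 without WT 4 leaves B. MBP15, another MADS-box gene, had 11, 23.0, 573 and 44.2, so its difference of 3.25 ± 1.35 rests on WT 6 leaves A and is 1.42 without it. TAGL1 and AGL11, of carpels and ovules, had 0 reads in the 4 libraries, and TAG1 had 1 read at each stage.

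No gene that keeps the meristem passed over all genes. WUSCHEL (WUS), which maintains its stem cells, had 217, 152, 176 and 199, a log2 difference of 0.04 ± 0.22, which is -0.21 without WT 4 leaves B. CLV3, whose peptide limits WUS, had 187, 136, 143 and 331, and its difference of 0.45 ± 0.40 is -0.15 without WT 6 leaves B. The KNOX gene TKN3 had 1310, 1094, 1469 and 1649 (0.38 ± 0.16, and 0.25 without WT 4 leaves B). Of the 9 genes tested, 7 were above and 2 below 0, the median was 0.17 (0.08 without WT 4 leaves B and 0.10 without WT 6 leaves B), and 1 (TKN3) had an unadjusted p under 0.05. Of all genes, 6.12% were under 0.05.

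Of 8 organ boundary and 5 lateral organ genes tested, 1 of each had an unadjusted p under 0.05, both higher. Of all genes, 3.18% were higher at that level. BOP1, a BLADE-ON-PETIOLE gene of organ boundaries, had 450, 386, 523 and 574 (0.39 ± 0.17). LANCEOLATE (LA), a TCP gene that promotes leaf maturation, had 609, 565, 675 and 853 (0.37 ± 0.14, and 0.20 without WT 6 leaves B). Both have non-overlapping groups, as had 21.0% of all genes in this direction, and differences under 2-fold. SBP3, a SQUAMOSA-promoter-binding gene, had 245, 126, 252 and 439, and its difference of 0.92 ± 0.39 is 0.44 at its lowest when single libraries are left out.

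**Figure D4:**
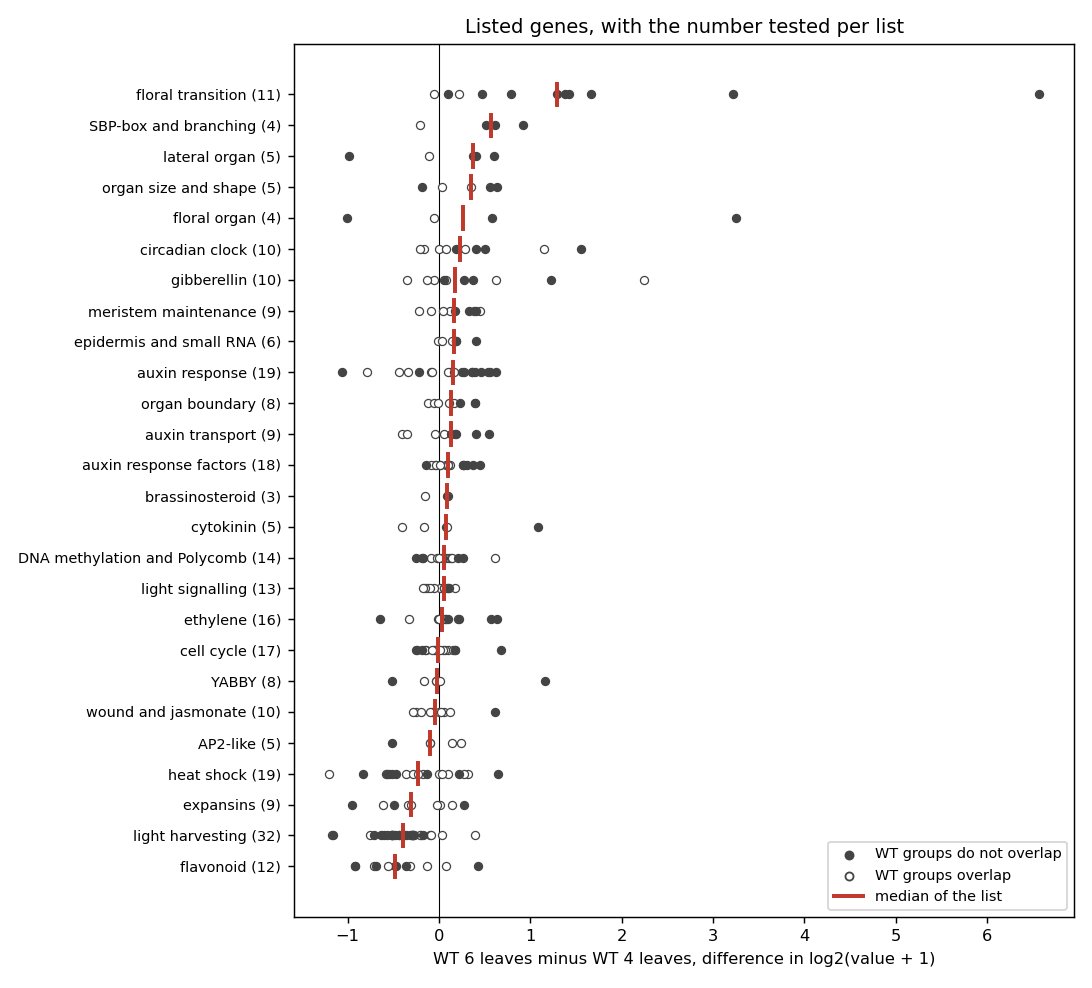
Each point is a tested gene of the list named on the vertical axis (number tested in parentheses), at its difference between WT 6 and WT 4 leaves in log2(normalised count + 1). Filled points are genes whose WT groups do not overlap, and the red bar is the list's median, which runs from -0.48 for flavonoid genes to 1.29 for the floral transition list.

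Of 19 tested genes of the auxin response list, 3 were higher at an unadjusted p under 0.05 and 0 lower, where 3.18% of all genes were higher at that level. IAA7 had 239, 209, 294 and 370 (0.56 ± 0.17), IAA27 had 1914, 1540.0, 2183 and 2554 (0.46 ± 0.17) and IAA4 had 190.1, 122, 218 and 228 (0.54 ± 0.23). Without WT 4 leaves B the difference of IAA4 is 0.23 and that of IAA27 is 0.30. These encode repressors of the auxin response. All 3 have both 6 leaves libraries above both 4 leaves libraries, which the naming rule required of IAA7 and IAA27. Of the 19, 8 were higher without overlap (42.1%) and 2 lower (10.5%), against 21.0% of all genes each way. On the list 12 genes were above and 7 below 0. Differences ran from -1.06 to 0.62, with a median of 0.16 (0.125 without WT 4 leaves B and 0.20 without WT 6 leaves B).

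Of 18 tested auxin response factors, which bind the promoters of auxin-responsive genes, 2 had an unadjusted p under 0.05, both higher. Of all genes, 3.18% were higher at that level. The list median was 0.10 (0.04 without WT 4 leaves B and 0.16 without WT 6 leaves B). ARF24 had 1429, 1595, 1750 and 1861 (0.26 ± 0.10). The influx carrier gene LAX1, which loads auxin into cells, had 736, 896, 1007 and 1152 (0.41 ± 0.14, and 0.27 without WT 4 leaves A). It was the only one of 9 tested auxin transport genes under 0.05, with a list median of 0.13.

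Genes of other hormones gave single cases. LOXD, a lipoxygenase of jasmonate synthesis, had 1004, 1346, 1706 and 1837 (0.61 ± 0.15, limma unadjusted p = 0.00445, and 0.40 without WT 4 leaves A), and it was the only one of 10 tested wound and jasmonate genes under 0.05, with a list median of -0.04 (0.09 without WT 4 leaves B). ACO6, an enzyme of the last step of ethylene synthesis, had 990, 781, 1344 and 1267 (0.57 ± 0.21). It was the only one of 16 tested ethylene genes under 0.05, with a list median of 0.03 and a range of -0.645 to 0.642. CKX5, which breaks down cytokinin, had 19.2, 40.7, 53.8 and 68.0 (1.08 ± 0.41, and 0.56 without WT 4 leaves A). It was the only one of 5 tested cytokinin genes under 0.05, with a list median of 0.08. Of all genes, 6.12% were under 0.05.

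For gibberellin, 0 of 10 tested genes had an unadjusted p under 0.05, and 8 were below the minimum. Of the 10 tested, 7 were above and 3 below 0, with a median of 0.18 (0.07 without WT 4 leaves B). Their log2 differences ran from -0.35 to 2.24. Without overlap, 4 were higher at 6 leaves (40.0% against 21.0% of all genes) and 0 lower. GA20ox3 and GA2ox3, given next, are among the 8 below the minimum. They were chosen after their values were seen and had fewer reads at 6 leaves, unlike most of the tested genes. GA20ox3, of gibberellin synthesis, had 7 and 17 reads at 4 leaves and 0 and 0 at 6 leaves. It had most of these reads in WT 4 leaves B, so no fold is given. In ltm it had 1, 24, 7 and 1 reads, with 4 leaves B highest. GA2ox3, of gibberellin inactivation, had 9, 8, 1 and 2 reads, a ratio of 4 over 6 leaves of 5.21 (95% counting interval 1.51 to 27.8).

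Cell division genes lay around 0. Of 17 tested, 8 were above and 9 below 0 with a median of -0.01. WEE1, a kinase that holds back cell division, was the one with an unadjusted p under 0.05, at 956, 912, 785 and 794 (-0.24 ± 0.10). Of all genes, 6.12% were under 0.05. CRCA, a YABBY gene related to CRABS CLAW, had 230.3, 229, 150.4 and 172 (-0.51 ± 0.19), and the YABBY list had a median of -0.03. EXPA4, an expansin that loosens cell walls, had 540.1, 491, 385 and 349, with a median of -0.31 for the expansin list (-0.09 without WT 4 leaves B and -0.15 without WT 6 leaves B). AP2d, an AP2-like transcription factor gene, had 1023.5, 1050.3, 982 and 538, and its difference of -0.51 is -0.08 without WT 6 leaves B. Genes of light signalling and of DNA methylation and Polycomb had medians of 0.05 each and 0 members under 0.05.

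Most genes of green tissue had lower values at 6 leaves, and 0 of them had an unadjusted p under 0.05. Of 32 light-harvesting genes tested, 30 were below and 2 above 0, and the median was -0.39 against -0.002 for all genes. For 19 of them the WT groups did not overlap, all lower at 6 leaves (59.4% of the list against 21.0% of all genes). The median was -0.20 without WT 4 leaves B and -0.34 without WT 6 leaves B. PSBS, which dissipates excess light energy, had 5758, 5673, 5037 and 3513 (-0.44 ± 0.20). LHCP, a chlorophyll-binding protein gene, had 1763, 2066, 1188 and 1582 (-0.48 ± 0.24). PETE, plastocyanin, had 1352, 1437, 1158 and 956 (-0.40 ± 0.18). GLK1, a factor of chloroplast development, had 83.2, 68.9, 56.8 and 24.9 (-0.99 ± 0.45). Without WT 6 leaves B the difference of GLK1 is -0.41 and that of PSBS -0.18, and without WT 6 leaves A that of LHCP is -0.27. In these bulk samples, fewer green cells and less of these RNAs per cell cannot be told apart, and the part of leaf tissue in the other differences was not tested.

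The medians of the flavonoid and heat-shock lists depended on single libraries. The flavonoid median was -0.48 over 12 genes, -0.11 without WT 4 leaves B, -0.21 without WT 6 leaves B, 0.12 within letter A and -0.91 within letter B. F3H, flavanone 3-hydroxylase, had 1778, 2153, 1426 and 1030 (-0.69 ± 0.33). The heat-shock median was -0.23 over 19 genes and 0.19 without WT 4 leaves B and -0.44 without WT 6 leaves B, while the summed normalised count of the list was higher at 6 leaves, with 154117, 138725, 194362 and 193411. That sum rests on HSC80, without which it was 33998, 49300, 30244 and 31189, lower at 6 leaves. Of the HSP90-family chaperones, Hsp90-1 had 21256, 28909, 18113 and 17562 (-0.47 ± 0.24, and -0.25 without WT 4 leaves B), and HSC80 had 120119, 89426, 164118 and 162222 (0.65 ± 0.30). Of the clock genes, none of whose names could be checked, Solyc04g071990.2 had 258, 205, 556 and 813 (1.55 ± 0.58), and it was the only one of 10 with an unadjusted p under 0.05. Of all genes, 6.12% were under 0.05.

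The same step in ltm was set beside that in WT. Of the genes higher without overlap in WT, 1014 (5.40% of all tested) were so in ltm too, which is 25.7% of the 3949 in WT and 41.1% of the 2466 in ltm (13.1% of all tested). Of those lower, 1048 (5.58%) were shared, 26.5% of the 3953 in WT and 39.4% of the 2659 in ltm (14.1%). Opposite changes without overlap were seen for 171 genes higher in WT (0.910%) and 152 lower in WT (0.809%). The B libraries at 4 leaves stand apart in both genotypes and enter both sets. The test of the difference between the changes (interaction in limma) called 0 genes, with 134 at an unadjusted p under 0.05 (0.713%).

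Among the called genes, Solyc08g060970.2 had 1623, 1503, 2462 and 2249 in ltm, in the same order of libraries, which is a change of 0.59 against 0.67 in WT. Solyc01g109390.2 had 685, 530, 1652 and 996, a change of 1.09 against 1.15. Solyc05g056620.1 had 0, 0, 0.946 and 0 (interaction unadjusted p = 0.000472, adjusted 1 over all genes). MBP20 had 3.05, 1.01, 19.9 and 11, below the WT values at both stages, with a change of 2.47 against 3.22 (interaction unadjusted p = 0.379). Solyc03g078330.1 had 34.5, 87.6, 21.8 and 25.0 (interaction unadjusted p = 0.0141).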

How the data were processed

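RNA of 8 libraries was measured. The deposited signal values are read counts per gene, scaled by the authors with 1 factor for each library. The submitters' processing notes name TopHat2 (2.0.10), HTSeq (0.6.1p1) and, among the tools of the authors, DESeq2 (1.6.3). No genome build is given in sources used here. All values were whole multiples of 1 read's value (100%, tolerance 1e-06), so whole reads were recovered, with factors between 0.883 and 1.09. Columns were joined to samples by the descriptions, and groups come from the titles.

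Genes reaching 10 in 2 or more of the 4 WT libraries were kept. The limma fit (version 3.58.1, R 4.3.3, with trend) took log2(value + 1) of the 8 libraries, 1 mean per group, and understates the change of low genes. p-values were adjusted by Benjamini-Hochberg. Alternatives on the recovered reads were edgeR 4.0.16 (quasi-likelihood) and DESeq2 1.42.0. The scripts were tested on simulated data. The comparison, the lists and the members named were chosen with earlier results of these data known. Named were genes called by any tool, up to 12 per direction with a checked name and no overlap, up to 4 per list at an unadjusted p under 0.05, and 2 per direction without annotation. One gene so named is not reported here. TKN2, WUS, CLV3, FA, J, HSC80, the genes below the minimum and the neighbouring and large unnamed genes were named after their values were seen. A symbol is used where RefSeq (SLM_r2.1) holds it on the same chromosome and in order, as for 282 of 343 listed pairs, and the rest are given by identifier.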

Additional observations from a re-analysis of the deposited data

Results flagged for a closer look

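MBP3 was marked because its libraries moved in opposite directions in the genotypes. It had 146 and 124 in WT at 4 leaves and 66.7 and 65.7 at 6 leaves, and in ltm 60.9 and 60.4 at 4 leaves and 77.6 and 91.0 at 6 leaves. The WT change minus the ltm change was -1.48 on the log2 scale (limma interaction, unadjusted p = 0.00109, adjusted 1 over all genes).

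CMT3, a DNA methyltransferase of the chromomethylase type, was marked in the same way. It had 3792, 3506, 3268 and 3133 in WT and 3584, 3597.5, 3892 and 3744 in ltm, and the WT change minus the ltm change was -0.28 (limma interaction, unadjusted p = 0.0785, adjusted 1).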

How the results depend on the processing

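The count of called genes was 0 in limma, and the alternatives kept it at 0 except DESeq2, with 11, and a pseudocount of 5, with 1 (Solyc05g056620.1). Of list genes, 3 passed in DESeq2, and 1 with a pseudocount of 5. At an unadjusted p under 0.05, 1150 genes became 1831 with the replicate letter as a block in limma and 1782 in edgeR, and between 264 (without WT 6 leaves B) and 2071 (without ltm 4 leaves B) with single libraries left out; without WT 4 leaves B it was 561. The labels do not say what the libraries of a letter share: the deviations of the A libraries correlated at 0.386 between the WT stages and at 0.112 to 0.536 over all pairs of groups, so a shared effect of the letter cannot be set aside. The DESeq2 alternatives were chosen after seeing the data. DESeq2 called 14 genes with the replicate block (10 shared with the 11, Solyc01g109390.2 lost), 18 without both 4 leaves B libraries (6 shared), and between 0 (without WT 6 leaves B) and 53 (without ltm 4 leaves A) with single libraries left out. It called 23 without WT 4 leaves A, 52 without ltm 4 leaves B, and 5 without either ltm 6 leaves library. Leaving out a library leaves 1 sample in its group, assumed to vary like the others. Of 52 named genes, WUS and CLV3 changed sign in 4 of the alternatives, none past the threshold. Genes under 10 normalised counts were not tested, and 2 libraries per stage limit what can be called.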
